A study of Rattus norvegicus with 6 samples.

Results

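Granins and the enzymes that process prohormones were followed in AR42J, a cell line grown from a rat tumour of pancreatic acinar (enzyme-secreting) cells, with and without dexamethasone, a synthetic glucocorticoid. The members were the probe sets annotated to 1 of 10 genes: Chga, Chgb, Scg2, Scg3, Scg5, Vgf, Pcsk1, Pcsk2, Cpe and Pam. The array gave 11 such probe sets for 9 of the genes, of 15866 probe sets and 10411 named genes in all; Pcsk1 was not analysed here. Cultures with 100 nM dexamethasone for 48 h (n = 3) were set against cultures without it (control, n = 3), with 1 Affymetrix Rat 230A array per culture. All cells were thawed at passage 29, plated for 24 h in F-12K medium with 20% serum and then kept in DMEM with 5% serum. The labels name no vehicle for the controls, and 1 cell line at 1 dose and 1 time was measured. The experiment was repeated 3 times over 5 months, and the design text speaks of independent pairs. Nothing further says how the cultures of a pair were related, so p-values measure the spread between these samples.

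Granins are acidic proteins stored in the dense-core granules of endocrine and neuronal cells, where they help to pack the granule and are themselves cut into peptides. Prohormones in the same granules are cut at pairs of basic residues by the convertases Pcsk1 and Pcsk2. The carboxypeptidase Cpe then trims the exposed basic residues, and Pam amidates the ends of peptides with a terminal glycine. AR42J cells are known to carry neuroendocrine features beside their acinar ones.

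Values are MAS5 signals, a linear intensity per probe set that the authors scaled to a trimmed mean of about 500 on each array, so they are relative to the array's total. Signals of different probe sets cannot be set against each other. A background level per array, the highest signal of 27 bacterial control probe sets, ranged from 83.7 to 115.9 on dexamethasone arrays and from 51.7 to 97.3 on control arrays. Of 11 listed acinar markers, 10 were on the array and all 10 were above background on every array, with summed signals of 118647 to 130418 with dexamethasone and 66863 to 80887 in control. Of 9 islet markers, 8 were on the array, of which 2 were above background on all dexamethasone arrays and 1 on all control arrays; their summed signals were 667.1 to 751.3 with dexamethasone and 520.7 to 693.0 in control. Summed signals of all 4 adrenal chromaffin markers, a cell type rich in granins, were 554.2 to 761.6 with dexamethasone and 401.7 to 481.5 in control. Those of 2 duct markers on the array were 573.3 to 1950 with dexamethasone and 2710 to 3797 in control. Those of 5 endothelial and immune markers were 440.8 to 672.3 with dexamethasone and 245.1 to 355.5 in control. Summed signals of the groups did not overlap for the acinar, chromaffin, duct or endothelial and immune markers. Of the 4 chromaffin markers, 4 were above background on all dexamethasone arrays and 2 on all control arrays. Of the 5 endothelial and immune markers, 1 was above background on all dexamethasone arrays and 1 on all control arrays. These 2 sums therefore include signals near or under background, a level that itself differed between arrays. Hepatocyte markers (3 on the array) summed to 2234 to 15791 with dexamethasone and 896.1 to 2999 in control, and 5 stromal markers to 532.6 to 594.3 with dexamethasone and 523.3 to 564.8 in control. Gcg and Iapp (glucagon and islet amyloid polypeptide) were not above background on any array, nor were Vim (stromal), Kdr (endothelial) and Ptprc (leukocyte), and no marker was listed at 0. The part of these marker shifts in the results was not tested. In a bulk culture, a change in the number of cells that make an RNA and a change in RNA per cell cannot be told apart.

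With dexamethasone, Chgb rose 1.48-fold and Cpe fell 1.66-fold, and the other 4 members bright enough to test did not pass the threshold. Pcsk2 was above background on 2 control arrays and on no dexamethasone array. Of the 11 member probe sets, 6 reached the filter on mean signal (147.6, the 40th percentile of the array) and all 6 were above background on every array. Limma with replicate number as a block called 1 member higher and 1 lower at a p of 0.05, after Benjamini-Hochberg adjustment over 9520 probe sets. Across the array 37.1% of probe sets were called, 15.9% higher and 21.2% lower, so 2 calls among 6 lie near the background share. The dexamethasone and control signals did not overlap for the same 2 of 6, against 49.7% of all probe sets tested. The median log2 change of the 6 was -0.20, beside -0.05 for all probe sets tested. Of all calls, 42.8% were higher with the deposited scaling, 57.5% with arrays centred on their 75th percentile and 19.3% with arrays scaled to the spiked hybridization controls, where the median of all probe sets tested was 0.08 and -0.29.

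**Figure D1:**
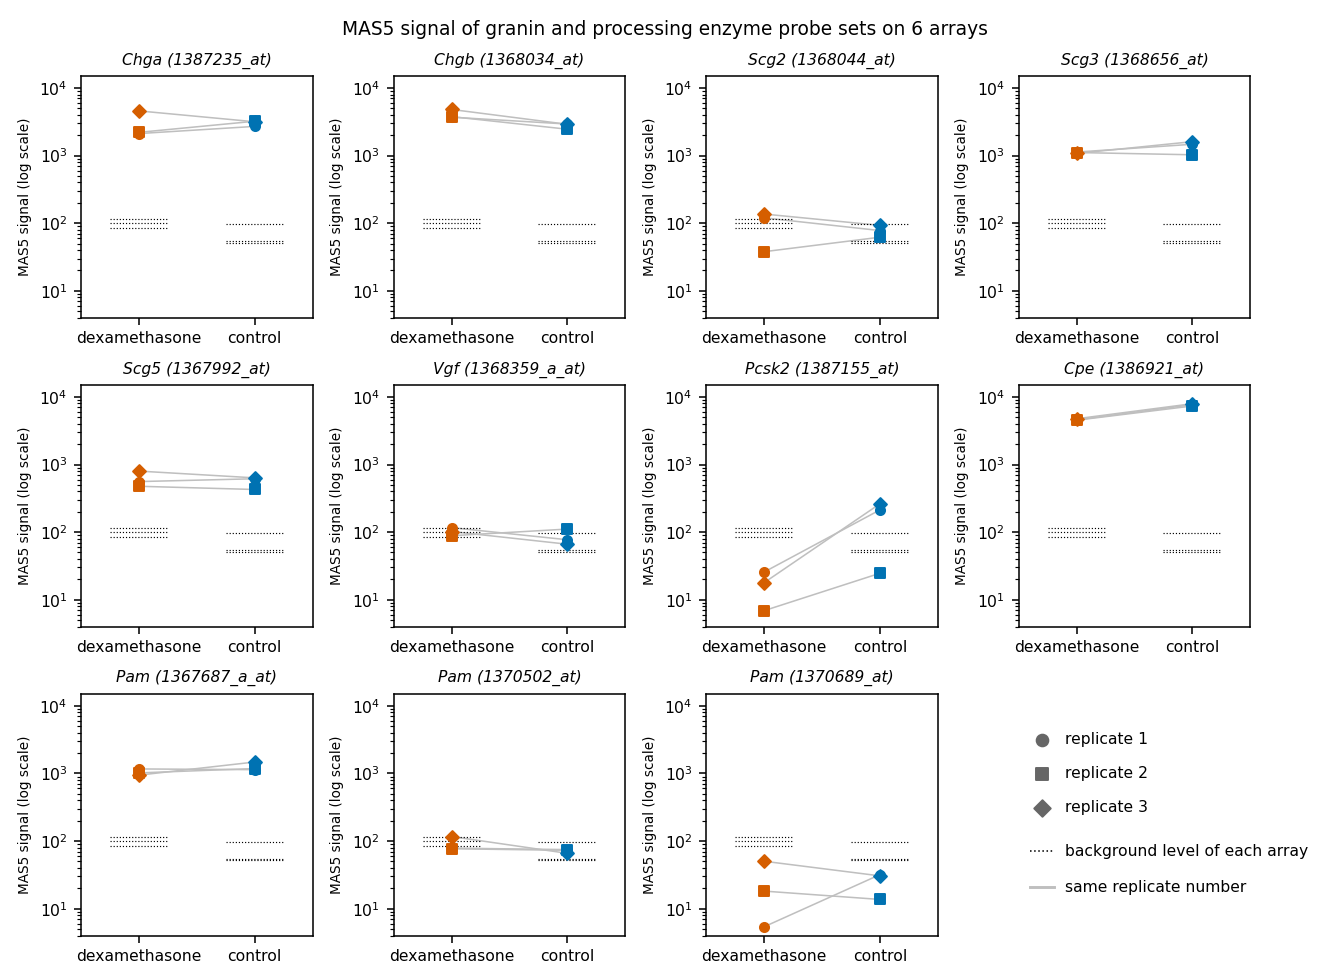
MAS5 signal (log axis) of the 11 member probe sets on each array, with dexamethasone (red) left of control (blue), a marker shape per replicate number, grey lines joining equal numbers and dotted lines at each array's background level. Cpe lies lower on all 3 dexamethasone arrays and Chgb higher, Scg2, Vgf and a pair of the Pam probe sets lie near or under the background level, and Pcsk2 is above it on controls 1 and 3 alone.

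Chgb encodes chromogranin B, a granin that promotes granule formation. Its signal was 3697, 3768 and 4810 in dexamethasone cultures 1 to 3, against 2930, 2456 and 2902 in control cultures 1 to 3. Every dexamethasone value lay above every control value. The log2 change was 0.56 ± 0.12 (SE; limma adjusted p = 0.00558), with pair differences of 0.34, 0.62 and 0.73. Of all probe sets tested, 12.4% had a larger positive change. With scaling to the hybridization controls the change was 0.31 and no longer passed (adjusted p = 0.0780).

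Chga encodes chromogranin A, the granin most widely used as a neuroendocrine marker. Its signal was 2117, 2208 and 4578 in dexamethasone cultures 1 to 3, against 2701, 3220 and 3163 in control cultures. Dexamethasone cultures 1 and 2 lay below all controls and culture 3 above all of them. The log2 change was -0.12 ± 0.19 (limma adjusted p = 0.654; 95% interval -0.55 to 0.31), with pair differences of -0.35, -0.54 and 0.53. The sign depended on single cultures: the change was 0.091 without replicate 2 and, unpaired, 0.075 without dexamethasone 1 and 0.044 without dexamethasone 2, none of them past the threshold, and 0.0032 with 75th percentile centring. Without the pair of replicate 3 it was -0.45 (adjusted p = 0.0333, where 18.6% of probe sets were called lower), and without dexamethasone 3 alone, unpaired, -0.48 (adjusted p = 0.0109, with 22% called lower). Dexamethasone 3 also had the highest signal of its group for Chgb, Scg5 and Cpe, and the lowest for Scg3 and the tested Pam probe set. Its ratio of 3′ to 5′ actin signal was the highest of all arrays, 1.69 beside 1.46 and 1.19 in dexamethasone 1 and 2. Such a ratio for Gapdh was its lowest of all arrays, 0.973 beside 1.07 and 0.989. The part of these differences in the Chga value was not tested.

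The ratio of 2 probe sets on an array does not move with the scaling of that array. The log2 ratio of Chga over Chgb was -0.80, -0.77 and -0.07 in dexamethasone cultures, against -0.12, 0.39 and 0.12 in control cultures. The groups overlapped through dexamethasone 3, while within pairs 1 to 3 the differences were -0.69, -1.16 and -0.20, all negative. The mean difference of -0.68 had an exact two-sided permutation p of 0.20 without pairing, where 3 against 3 cannot go below 0.10.

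Scg3, a granin that binds chromogranin A and cholesterol in the granule membrane, had signals of 1128, 1110 and 1077 with dexamethasone, against 1470, 1028 and 1607 in control. The dexamethasone values were close together, and control 2 lay below them while controls 1 and 3 lay above. The log2 change was -0.28 ± 0.15 (limma adjusted p = 0.187; 95% interval -0.63 to 0.07). It passed at -0.53 with hybridization control scaling (adjusted p = 0.0480, with 34.2% of probe sets called lower) and at -0.48 without control 2, unpaired (adjusted p = 0.0233, with 18.3% called lower). It shrank to -0.14 without replicate 3 and to -0.15 without control 3, unpaired, and was -0.48 without replicate 2 (adjusted p = 0.0674). Scg5, the chaperone that escorts the Pcsk2 precursor and restrains its activity, had signals of 559.4, 476.7 and 799.3 with dexamethasone, against 615.8, 427.2 and 634.8 in control. The groups overlapped, and the log2 change was 0.12 ± 0.15 (limma adjusted p = 0.587; 95% interval -0.23 to 0.46). That sign turned to -0.13 with hybridization control scaling, -0.093 without dexamethasone 3, unpaired, and -0.066 without control 2, unpaired.

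The probe sets of Scg2 (secretogranin II, the precursor of secretoneurin) and Vgf (a granin-like precursor induced by nerve growth factor in neuronal cells) were too dim to test. Scg2 had signals of 120.0, 37.9 and 136.6 with dexamethasone, against 77.9, 62.0 and 93.0 in control, and was above background on 2 arrays of each group. Vgf had 116.5, 88.5 and 102.1 with dexamethasone, against 77.2, 111.0 and 66.3 in control, and was above background on 2 dexamethasone and 3 control arrays. The dexamethasone and control values overlapped for both genes. Without the filter, the log2 changes were 0.16 ± 0.38 for Scg2 (limma adjusted p = 0.822; 95% interval -0.74 to 1.06) and 0.30 ± 0.33 for Vgf (limma adjusted p = 0.594; 95% interval -0.49 to 1.08).

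Among the enzymes, Cpe had the tightest values. Its signal was 4579, 4524 and 4752 in dexamethasone cultures 1 to 3, against 7684, 7344 and 7925 in control cultures 1 to 3. All dexamethasone values lay below all controls, and the pair differences were -0.75, -0.70 and -0.74 on the log2 scale. The log2 change was -0.73 ± 0.09 (limma adjusted p = 0.000400), and 11.9% of all probe sets tested fell further. Cpe passed under every setting run, from -0.60 with 75th percentile centring to -0.97 with hybridization control scaling.

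Pcsk2, the convertase that completes the cutting of many prohormones, had signals of 25.7, 6.9 and 17.9 with dexamethasone, against 212.6, 24.6 and 261.7 in control. No dexamethasone array was above background, controls 1 and 3 were, and control 2 was not. The groups overlapped, since control 2 lay below dexamethasone 1. Its mean signal was under the filter. In the fit without the filter the log2 change was -2.92 ± 0.49 (limma adjusted p = 0.00672), where 12.2% of probe sets were called lower. That size rests on values under the background level. With the dexamethasone signals raised to that level, Pcsk2 was 1.12-fold lower. This is not a firm lower bound, because the control mean keeps control 2 at 24.6, under that array's background of 97.3.

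Pam, the amidating enzyme, had 3 probe sets, of which 1 was tested. It gave 1166, 1019 and 945.4 with dexamethasone, against 1138, 1182 and 1476 in control, with dexamethasone 1 inside the control range and the other two below it. The log2 change was -0.27 ± 0.15 (limma adjusted p = 0.198; 95% interval -0.62 to 0.08), and -0.52 with hybridization control scaling (adjusted p = 0.0375, with 34.2% of probe sets called lower). Without replicate 3 it was -0.090, without control 3, unpaired, -0.16, and without replicate 1 -0.43, none of them past the threshold. Of the dim Pam probe sets, the brighter had 78.6, 77.0 and 116.6 with dexamethasone, against 74.8, 73.0 and 65.9 in control. It was above background on 1 dexamethasone and 2 control arrays, and its groups did not overlap. The dimmest was under background on every array, between 5.4 and 50.3.

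The log2 ratio of Cpe over Pam was 1.97, 2.15 and 2.33 in dexamethasone cultures, against 2.75, 2.64 and 2.42 in control cultures. The groups did not overlap, and within pairs 1 to 3 the differences were -0.78, -0.49 and -0.095. The mean difference was -0.45 (exact two-sided permutation p = 0.10 without pairing, the smallest the design allows). The log2 ratio of Chgb over Cpe, chosen after the values were seen and so not tested, was -0.31, -0.26 and 0.02 with dexamethasone, against -1.39, -1.58 and -1.45 in control. The difference between the groups was 1.29 on the log2 scale and does not depend on the scaling factor of an array. The pair joins the only member called higher with the only one called lower, so a large difference follows from that choice.

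**Figure D2:**
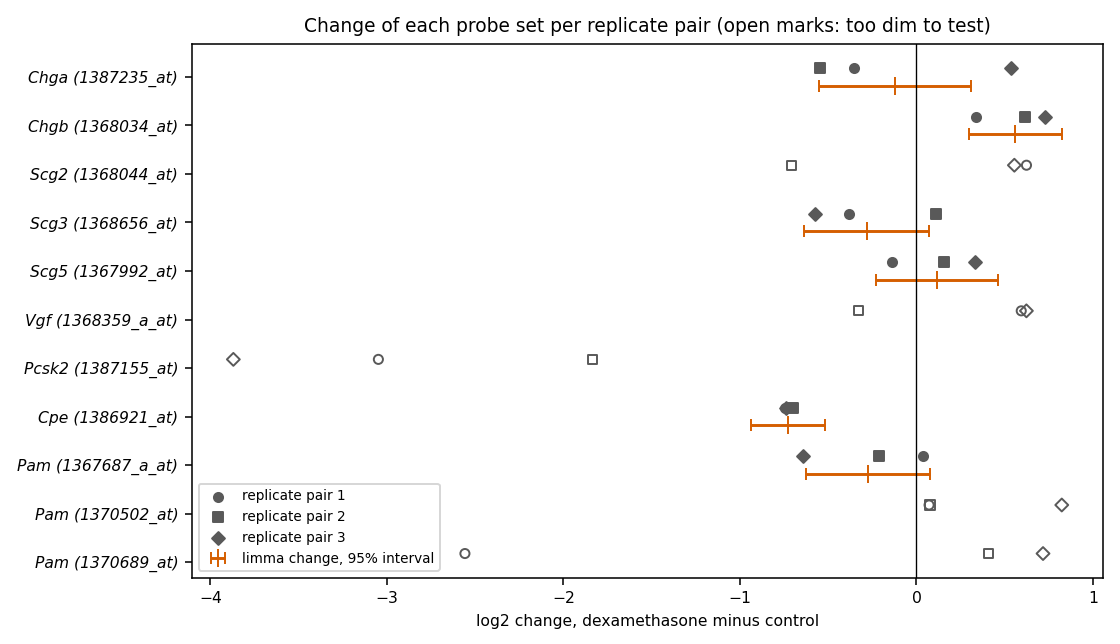
Log2 change (dexamethasone minus control) of each member probe set in the 3 replicate pairs, with the limma change and its 95% interval in red for the 6 tested and open marks for the 5 too dim to test. The 3 pairs of Cpe lie together at -0.75 to -0.70, those of Chga fall on both sides of 0, and those of Pcsk2 run from -3.87 to -1.83 on signals mostly under background.

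**Figure D3:**
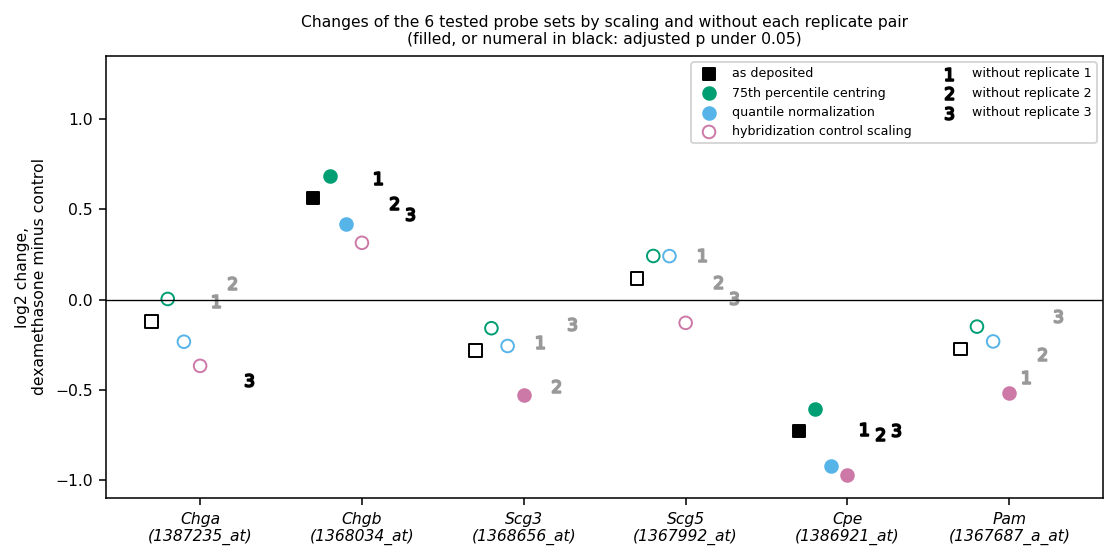
Log2 change (dexamethasone minus control) of the 6 tested probe sets as deposited, under 3 other scalings and without each replicate pair; filled marks and black numerals have an adjusted p under 0.05. Cpe passes throughout, Chgb fails with hybridization control scaling alone among those drawn, and Chga passes without replicate 3 alone.

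Promoter sequence was taken from RefSeq (rat build GRCr8, 250 bases before to 50 after each annotated start), which matched 8 of the 10 genes. Chga and Pcsk1 had no window. Those of Chgb and Cpe are shown because these genes passed the threshold in opposite directions, and those of Scg2 and Vgf because they hold a full cAMP response element (CRE), a motif known from granin promoters. Capitals mark the CRE (TGACGTCA) or its half-site (TGACG, on either strand), each full CRE holding a half-site on both strands. The windows are chr3:140496462-140496761, plus strand, for Chgb; chr16:29796457-29796756, plus strand, for Cpe; chr9:88256817-88257116, minus strand, for Scg2; and chr12:25276971-25277270, minus strand, for Vgf.
Chgb: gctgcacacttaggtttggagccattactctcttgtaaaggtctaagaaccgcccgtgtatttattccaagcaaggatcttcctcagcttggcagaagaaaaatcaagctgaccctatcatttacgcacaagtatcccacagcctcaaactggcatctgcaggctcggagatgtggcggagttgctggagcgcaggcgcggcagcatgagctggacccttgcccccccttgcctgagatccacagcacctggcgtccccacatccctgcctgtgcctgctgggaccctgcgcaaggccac
Cpe: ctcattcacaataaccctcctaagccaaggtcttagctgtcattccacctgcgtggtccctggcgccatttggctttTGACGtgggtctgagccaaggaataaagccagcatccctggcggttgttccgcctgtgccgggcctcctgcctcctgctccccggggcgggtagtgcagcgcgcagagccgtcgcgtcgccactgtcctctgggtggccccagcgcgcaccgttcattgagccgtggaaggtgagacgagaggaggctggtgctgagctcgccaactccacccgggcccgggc
Scg2: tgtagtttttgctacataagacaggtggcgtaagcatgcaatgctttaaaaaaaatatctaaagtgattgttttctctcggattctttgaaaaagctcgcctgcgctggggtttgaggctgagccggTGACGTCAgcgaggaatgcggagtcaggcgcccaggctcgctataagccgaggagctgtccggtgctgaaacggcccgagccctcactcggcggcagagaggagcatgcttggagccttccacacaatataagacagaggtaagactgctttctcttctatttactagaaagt
Vgf: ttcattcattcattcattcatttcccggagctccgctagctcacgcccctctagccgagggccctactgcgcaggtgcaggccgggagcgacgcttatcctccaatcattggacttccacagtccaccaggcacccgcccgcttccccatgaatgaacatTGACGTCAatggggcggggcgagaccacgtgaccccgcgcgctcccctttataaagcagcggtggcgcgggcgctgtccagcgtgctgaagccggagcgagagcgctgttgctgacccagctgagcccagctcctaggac

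The full CRE began 123 bases before the annotated start of Scg2 and 90 bases before that of Vgf, and it was found in 2 of the 8 member windows and in 1.83% of all 33469 windows. The half-site was found in 7 of 8 member windows, all but that of Chgb, and in 21.2% of all windows. In Cpe it began 173 bases before the start. The glucocorticoid response element is a paired motif; its half-site (AGAACA, either strand) was in 0 of 8 member windows and in 20.7% of all windows. A match describes letters in the window and not a bound site, and the signals of Scg2 and Vgf lay near background in both groups.

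Other processing enzymes and convertases moved in both directions. Of 20 listed, 16 were on the array and 13 were tested, with 1 probe set per gene: 6 rose, 3 fell and 4 did not pass, beside 17% of all genes tested that rose (38.4% were called in either direction) and 21.4% that fell. The list's median log2 change was 0.21, against -0.04 for all genes tested. Ctsl, cathepsin L, a protease that also cuts some prohormones in secretory vesicles, had signals of 9468, 9742 and 9668 with dexamethasone, against 2056, 2810 and 2394 in control (log2 change 2.00 ± 0.11, limma adjusted p = 3.2e-06), and its other probe set rose by 2.16. Furin, the convertase of the trans-Golgi network, had signals of 1442, 1490 and 1500 with dexamethasone, against 870.7, 899.1 and 910.3 in control, and rose by 0.73 ± 0.12 (limma adjusted p = 0.00191). Neither gene's groups overlapped, as for 49.7% of all probe sets tested.

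Pcsk7, another convertase of the constitutive pathway, had signals of 699.4, 548.7 and 827.8 with dexamethasone, against 300.3, 417.4 and 274.6 in control (log2 change 1.07 ± 0.22). Mbtps1, the site-1 protease of the Golgi, fell by 0.66 ± 0.13. Erp44, which retains proteins in the early secretory pathway, rose by 0.63 ± 0.16, a call lost with hybridization control scaling (adjusted p = 0.0824) and without replicate 2 (adjusted p = 0.0529); its other probe set did not pass (-0.08 ± 0.23). Outside the rule for named genes, and named after their values were seen, are the remaining called genes of the list. Pcsk6, a furin-like convertase, fell by 0.60 ± 0.14 and Rnpep, an aminopeptidase, by 0.62 ± 0.13. Cpd, a carboxypeptidase like Cpe, rose by 0.53 ± 0.15 (limma adjusted p = 0.0256) and Ctsb, cathepsin B, by 0.60 ± 0.11 (limma adjusted p = 0.00351). Pcsk1n, the granin-like inhibitor of Pcsk1, had signals of 622.9, 611.5 and 698.5 with dexamethasone, against 676.0, 563.9 and 672.8 in control, and did not pass (0.02 ± 0.14, limma adjusted p = 0.934).

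Among genes of the dense-core granule membrane and its exocytosis, 38 of 40 listed were on the array and 29 were tested: 4 rose, 10 fell and 15 did not pass (median -0.15, against -0.04 for all genes tested), beside 17% of all genes tested that rose and 21.4% that fell. With 75th percentile centring 7 rose and 9 fell (22.4% and 15.8% of all genes), and with hybridization control scaling 3 rose and 12 fell (8.84% and 34.5% of all genes). Stx1a, the syntaxin of the plasma membrane fusion complex, had signals of 321.1, 313.9 and 332.8 with dexamethasone, against 753.0, 713.9 and 748.6 in control (log2 change -1.19 ± 0.14, limma adjusted p = 0.000291), and its other probe set fell by 1.02. Cplx1, complexin, which clamps that complex, had 113.9, 120.3 and 120.5 with dexamethasone, against 244.5, 264.0 and 302.3 in control (-1.19 ± 0.20). Its dexamethasone signals lay near the background levels of those arrays (100.2, 83.7 and 115.9, in that order) and under the filter signal of 147.6. With a pseudocount at the background level the Cplx1 change shrank to -0.79 and still passed (limma adjusted p = 0.00145). Groups did not overlap for either gene.

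Cadps2, a priming factor of dense-core granules, fell by 1.02 ± 0.19 and Syt7, a calcium sensor of exocytosis, by 0.98 ± 0.21. The Syt7 signals of 144.6, 107.5 and 184.0 with dexamethasone averaged 145.4, under the filter signal of 147.6, beside 280.0 in control. With a pseudocount at the background level the Syt7 change was -0.66 (limma adjusted p = 0.00518). Sv2a, a vesicle membrane glycoprotein, fell by 0.82 ± 0.22 with 2 of 3 dexamethasone arrays above background, a call lost without replicate 1 (adjusted p = 0.102) or replicate 2 (adjusted p = 0.0749) and, unpaired, without control 3 (adjusted p = 0.0525). Its dexamethasone signals of 95.6, 120.7 and 141.1 were all under the filter signal, beside a control mean of 207.7. Cplx1, Syt7 and Sv2a thus reached the filter on mean signal through their control arrays, and all are counted among the falls. The 4 that rose, named after their values were seen, were Ptprn and Ptprn2, which encode transmembrane proteins of the dense-core granule, and the GTPase genes Rab3b and Rab2a. Ptprn had signals of 1519, 1802 and 1700 with dexamethasone, against 964.5, 959.2 and 1006 in control (log2 change 0.77 ± 0.12, limma adjusted p = 0.00153). Ptprn2 rose by 0.61 ± 0.13, Rab3b by 0.82 ± 0.18 and Rab2a by 0.43 ± 0.12.

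Of 41 listed prohormone and neuropeptide precursors, the substrates of these enzymes, 37 were on the array and 28 were too dim to test. Of the 9 tested, 3 rose, 1 fell and 5 did not pass, beside 17% of all genes tested that rose and 21.4% that fell (median 0.19, against -0.04 for all genes tested). Trh, the thyrotropin-releasing hormone precursor, had signals of 1019, 260.4 and 517.8 with dexamethasone, against 291.1, 56.1 and 270.5 in control, where control 2 was not above background. Its groups overlapped, and the rise of 1.65 ± 0.24 (limma adjusted p = 0.000950) was not called without the replicate block (adjusted p = 0.0654). Unpaired, it was also not called without dexamethasone 1 (1.16), dexamethasone 3 (1.65), control 2 (0.88) or control 3 (2.01).

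Gal, the galanin precursor, changed by 1.16 ± 0.20 on the log2 scale, and control 2 was not above its array's background. This call was lost, unpaired, without dexamethasone 1 (1.13, adjusted p = 0.0652), dexamethasone 3 (0.98, adjusted p = 0.0574) or control 2 (0.77, adjusted p = 0.0508). Sct, secretin, rose by 0.61 ± 0.20 (limma adjusted p = 0.0415), a call lost with hybridization control scaling, with no filter, without replicate 1 or 3 and, unpaired, without dexamethasone 1 or 2 or control 1 or 3 (adjusted p from 0.0546 to 0.237 with a replicate left out). Calca, which gives calcitonin and the calcitonin gene-related peptide by splicing, had 3 tested probe sets that disagreed. The brightest by mean signal over all arrays had 2048, 3281 and 2556 with dexamethasone, against 6235, 5379 and 5897 in control (-1.18 ± 0.16). The others rose by 1.05 ± 0.18 and 4.63 ± 0.14, and both rises passed the threshold. On every dexamethasone array the probe set that fell was the dimmest of the 3. The fall counted for Calca thus rests on the choice of probe set.

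Of 24 listed transcription factors of endocrine and neuronal cells, 15 were on the array and 6 were tested: 0 rose, 1 fell and 5 did not pass, beside 21.4% of all genes tested that fell (median -0.37, against -0.04 for all genes tested). The 6 tested were St18, Foxa2, Prox1, Creb1, Atf1 and Crebbp. The 9 too dim were Neurod1, Neurog3, Nkx6-1, Pax4, Pax6, Isl1, Pdx1, Rest and Crem, so the median does not cover these. With hybridization control scaling, where 34.5% of all genes fell, 5 of the 6 tested fell. With no filter 0 of the listed genes were called. Prox1, a homeobox factor of pancreas development, fell by 0.81 ± 0.23 (limma adjusted p = 0.0212), a call lost with no filter (adjusted p = 0.0509), without replicate 1 (-0.42, adjusted p = 0.0785) or 2 (-0.99, adjusted p = 0.0514), and without control 1, unpaired (-0.70, adjusted p = 0.0708).

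**Figure D4:**
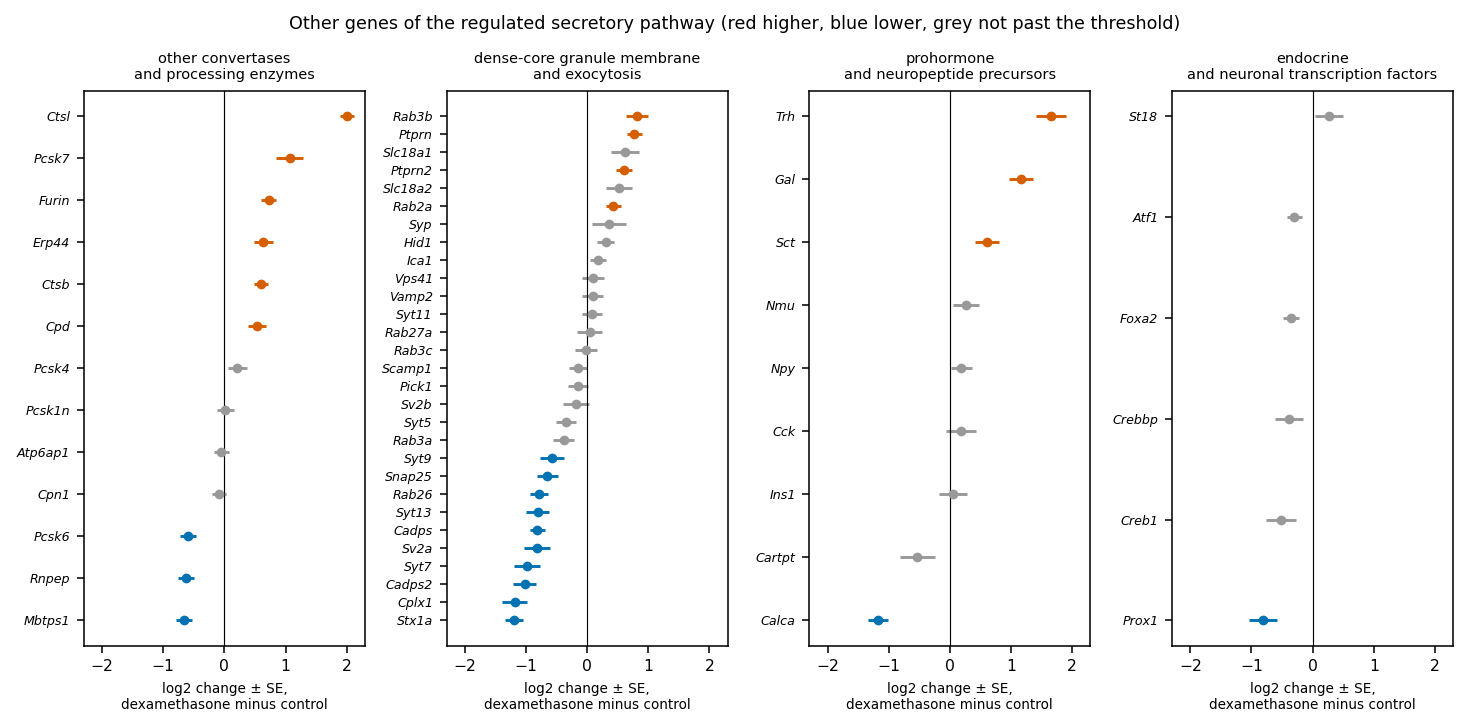
Log2 change ± SE (dexamethasone minus control, 1 probe set per gene) of the tested genes in the lists of processing enzymes, granule and exocytosis genes, peptide precursors and transcription factors; red genes rose, blue genes fell and grey genes did not pass. Granule genes spread from Stx1a at -1.19 to Rab3b at 0.82, and Ctsl at 2.00 lies furthest to the right.

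The genes whose log2 signals over the 6 arrays correlated most closely with those of Chgb were Pxmp2 (Pearson r = 0.996), Pdcd2 (0.995), Bcas3 (0.993) and Fbxo3 (0.993). Their changes were 1.13, 0.44, 0.82 and 0.42 on the log2 scale, and that of Pdcd2 did not pass (limma adjusted p = 0.0575). Those closest to Cpe were Casp2 (r = 0.9995), Ipo9 (0.999), Evl (0.999) and Ptgfrn (0.999), with log2 changes of -2.02, -0.92, -1.15 and -2.09. These correlations describe 6 arrays that share their scaling and fall into 2 groups, so any gene with a steady change between the groups gives a value near 1.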

How the data were processed

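RNA from 6 cultures was measured on 1 array each. The authors deposited an intensity for each probe set, the linear signal of MAS5, run with the GCOS software according to the submitters' processing notes; versions and scaling settings are not given in the sources used here. Background and mismatch subtraction makes low signals noisy. The number of arrays limits the precision.

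Of 15923 probe sets, 57 were controls. Probe sets were named from the platform annotation (12783 with 1 symbol, 312 with several and unnamed) and checked against the RefSeq gene table of GRCr8. The 4 signals listed at 0 were replaced by 0.1 before log2 was taken, without further normalization. Probe sets at or above the 40th percentile of mean log2 signal were fitted with limma 3.58.1 in R 4.3.3 (treatment plus replicate number, eBayes with intensity trend), with Benjamini-Hochberg adjustment over all 9520; the fit was tested on simulated data. The block follows the design text's pairs. Deviations from the group means correlated by -0.10, 0.11 and 0.21 between equal replicate numbers. Between unequal numbers they correlated by -0.248 to 0.175, so equal numbers were hardly more alike. A gene was represented by its brightest probe set. Within-array ratios, fixed for 5 gene pairs and computed where both genes were tested, used exact permutation tests. The Pcsk2 value against background sets the brighter group's mean log2, with signals as measured, against the dimmer group's. In the dimmer group a signal under its array's background is raised to that background.

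All member probe sets are named, and of each list the 5 called genes with the largest change; the 4 genes with the highest correlation to the member with the largest rise and fall are also named. Members and lists were chosen with earlier results of these data known. Alternatives covered scaling, filter, a pseudocount of 90.5, the trend, the block and leaving out replicates.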

Additional observations from a re-analysis of the deposited data

How the results depend on the processing

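Cpe was lower and past the threshold under every setting run, and Chgb higher and past it under all but hybridization control scaling. With that scaling 0 members were called higher and 3 lower (Cpe, Scg3 and Pam), and 778 probe sets were higher and 3257 lower across the array. Without the filter 2 members were lower, the second being Pcsk2, where 12.2% of all probe sets were called lower. With replicates left out, 1 to 2 members were called lower and 1 higher. Across the array 1399 to 2097 of 9520 probe sets were then called lower and 1035 to 1433 higher. List genes called higher ranged from 8 to 14 (13 with all arrays) and those called lower from 10 to 16 (15 with all arrays). The 6 leave-outs of single arrays were chosen after seeing the data. The Cpe over Pam difference was -0.69 with quantile normalization and -0.63 to -0.29 with replicates left out. Chga, not called with all arrays (-0.12), changed by 0.0032 with 75th percentile centring, 0.091 without replicate 2, -0.45 without replicate 3, and, unpaired, 0.075, 0.044 and -0.48 without dexamethasone 1, 2 and 3; these leave-outs span -0.48 to 0.091. Scg5, also not called (0.12), changed by -0.13 with hybridization control scaling and, unpaired, by -0.093 without dexamethasone 3 and -0.066 without control 2, within a span of -0.093 to 0.28. With no replicate block, 1 member was higher and 1 lower, and 1517 probe sets were higher and 2025 lower across the array, against 1512 and 2019 with it; the call of Trh was lost without it. The cause of these shifts was not tested. Signals near background limit Scg2, Vgf, Pcsk2 and the dim Pam probe sets.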
